A study of Rattus norvegicus with 6 samples.

Results

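The S100 proteins examined here are 10 genes of the small calcium-binding S100 family, taken as the rows of the count table whose symbols are S100a1, S100a4, S100a6, S100a8, S100a9, S100a10, S100a11, S100a13, S100a16 and S100b. All 10 had a row among the 19382 genes of the table, and 7 of them passed the filter on low counts that left 14959 genes for testing. Their RNA was measured by sequencing of rat brain tissue in 6 libraries, 3 labelled control and 3 labelled hypoxic-ischemic (HI). The HI rats were SD rats, a laboratory strain, exposed at 7 days of age to 2.5 h of ischemia and hypoxia, a model of injury to the newborn brain. The labels give no other agent or allele, neither the brain region nor the time between injury and sampling, not the age of the controls, and not whether each library is 1 animal, so the p-values rest on the scatter among these libraries, some of which could be technical. The tissue label was checked against neuron markers, and 12 of 12 were tested, with a summed level of 3060 CPM or more in each library. CPM are reads per 1000000 reads of the library, scaled with TMM factors.

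S100 proteins carry a pair of EF-hand calcium-binding loops and mostly work as dimers that change shape on binding calcium and then grip a target protein. Inside cells they act on annexins, myosin, calcium channels and pumps, and some are released and bind receptors such as RAGE, encoded by Ager, and TLR4. In the brain S100b is best known as a protein of astrocytes that leaks into blood and cerebrospinal fluid after injury, and S100a8 and S100a9 form calprotectin, the main cytosolic protein complex of neutrophils. In mammals most S100a genes sit side by side in a cluster, while S100b lies elsewhere.

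Within the family 2 of the 7 tested members rose in HI, S100a4 and S100a13, and 0 fell (quasi-likelihood F test of edgeR, Benjamini-Hochberg adjusted p below 0.05 over all tested genes). Over all genes the same test called 13.9% in either direction, 6.83% as higher and 7.04% as lower. DESeq2 called 4 members and 28.1% of genes, and limma-voom 0 members (3 at an unadjusted p below 0.05) and 9.17% of genes. An unadjusted limma-voom p below 0.05 was found for 5246 of the 14959 tested genes. The median log2 fold change was 0.78 over the 7 tested members and 0.04 over all tested genes. S100a4 was among the tested genes through its HI reads alone. This tilts upward the count of members called and the count, given below, of members with separate groups, and slightly that median. S100a6 had the steepest contrast among members with reads in the controls but missed the filter, S100a8 and S100a9 were close to absent, and S100a10 did not shift in 1 direction. All 3 HI libraries stood above all 3 controls for 3 of the 7 tested members, S100a4, S100a13 and S100a16, and for 21.5% of all tested genes. They stood below all controls for 0 of the 7 and for 20.8% of tested genes. S100a6, S100a8 and S100a9, which are not among the tested genes, also had all HI libraries above all controls, S100a8 and S100a9 by a few reads.

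The region before the gene start is shown for members at the low end and for S100a13, to set the letters of members with almost no reads in controls beside those of a moderately expressed one. RefSeq sequences of build GRCr8 were found for 7 of the 10 members. Each run below is the 250 bases before the listed start, 5′ to 3′ in the direction of the gene, with capitals marking TATAA on the strand of the gene and GGGCGG, a binding motif of Sp1, on either strand. S100a4 (chr2:178388279-178388528, plus strand), S100a6 (chr2:178398287-178398536, plus strand), S100a9 (chr2:178490623-178490872, minus strand) and S100a13 (chr2:178296770-178297019, plus strand) read as follows.
S100a4: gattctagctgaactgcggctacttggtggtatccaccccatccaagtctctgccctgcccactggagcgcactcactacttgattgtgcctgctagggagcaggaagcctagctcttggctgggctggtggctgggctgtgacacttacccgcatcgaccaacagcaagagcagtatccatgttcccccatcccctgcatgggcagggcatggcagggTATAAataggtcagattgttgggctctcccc
S100a6: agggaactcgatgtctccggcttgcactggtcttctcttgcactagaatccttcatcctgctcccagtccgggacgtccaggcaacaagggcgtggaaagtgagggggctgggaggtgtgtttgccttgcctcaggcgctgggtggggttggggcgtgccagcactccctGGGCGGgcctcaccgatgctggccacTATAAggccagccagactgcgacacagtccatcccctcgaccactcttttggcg
S100a9: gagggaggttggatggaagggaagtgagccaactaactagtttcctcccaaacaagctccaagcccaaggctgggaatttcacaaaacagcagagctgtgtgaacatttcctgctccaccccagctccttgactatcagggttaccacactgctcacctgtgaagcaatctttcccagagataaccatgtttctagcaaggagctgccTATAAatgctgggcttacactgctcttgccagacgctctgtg
S100a13: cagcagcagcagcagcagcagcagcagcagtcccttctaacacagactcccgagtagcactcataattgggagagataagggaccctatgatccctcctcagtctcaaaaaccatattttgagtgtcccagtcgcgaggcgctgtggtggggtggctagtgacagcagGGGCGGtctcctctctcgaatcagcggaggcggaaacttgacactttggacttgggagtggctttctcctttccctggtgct

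TATAA begins 31 bases before the start of S100a4, 54 before that of S100a6 and 42 before that of S100a9. It is not in this window of S100a11, S100a13, S100a16 or S100b, and 16.7% of 33469 promoters hold it. GGGCGG is in the windows of S100a6, S100a11 and S100a13 and in 30.5% of all. Other motifs searched on both strands were TGANTCA of AP-1 (6.34% of all), TTCNNNGAA of STAT factors (7.67%) and GGNNNTTCC, a core of many NF-kB sites (15.4%), and none of the 7 windows holds any of these letters. These matches describe the letters only.

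S100a4 binds the heavy chain of nonmuscle myosin, and fibroblasts, leukocytes and white matter astrocytes are known to make it. It had 6, 7 and 6 reads in controls 1, 2 and 3 and 23, 63 and 125 in HI 1, 2 and 3, or 0.454, 0.515 and 0.449 CPM against 1.54, 4.05 and 7.57 CPM. The controls were almost alike, and the HI libraries were all above them but far apart, HI 1 lowest and HI 3 highest. S100a4 rose 9.14-fold, a log2 fold change of 3.19 ± 0.64 (SE, n = 3 per group, edgeR adjusted p = 0.031). DESeq2 gave an adjusted p of 1.8e-04 and limma-voom one of 0.0718. The edgeR call held without HI 1 and was lost without control 1, control 2, control 3, HI 2 or HI 3 (highest adjusted p 0.110). Log2 fold changes ran from 2.54 without HI 3 to 3.59 without HI 1. Over all genes edgeR called 0 without control 1 or HI 2 and 1 without control 2. The losses in those fits thus say little about S100a4 alone. Without control 3 and without HI 3 edgeR still called 1694 and 644 genes, and S100a4 had an adjusted p of 0.062 and 0.0582. Myh9, a myosin heavy chain to which S100a4 binds, went from 116 ± 10.3 to 231 ± 87.9 CPM (SD) and did not pass (edgeR adjusted p = 0.0667).

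S100a6, or calcyclin, is a protein of proliferating cells, fibroblasts and some astrocytes, and lies close to S100a4 in the cluster. It had 4, 1 and 1 reads in controls 1, 2 and 3 and 8, 75 and 174 reads in HI 1, 2 and 3. HI 2 and HI 3 stood far above every control, HI 1 stood only slightly above control 1, and HI 3 alone held 67.7% of the HI reads. Summed over the group, 257 HI reads stood against 6 control reads, a ratio of 36.6 after scaling to library size with a 95% interval from 16.6 to 101 that covers counting error only (exact conditional binomial). Without the filter edgeR gave an adjusted p of 0.044. It was 0.00949 without HI 1 and between 0.0995 and 0.146 without any 1 of the other libraries, with log2 fold changes from 4.07 to 5.95. With the filter edgeR called 0 genes of the whole table without control 1 or HI 2 and 1 without control 2. The losses in those fits thus say little about S100a6 alone. Without control 3 and without HI 3 the filtered edgeR fits still called 1694 and 644 genes. In the unfiltered fits without these libraries S100a6 had an adjusted p of 0.0995 and 0.102. CacyBP, the calcyclin-binding protein encoded by Cacybp, was level, with control libraries at 116 ± 12.3 CPM, HI libraries at 118 ± 5.2 CPM and a log2 difference of 0.02 ± 0.11.

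**Figure D1:**
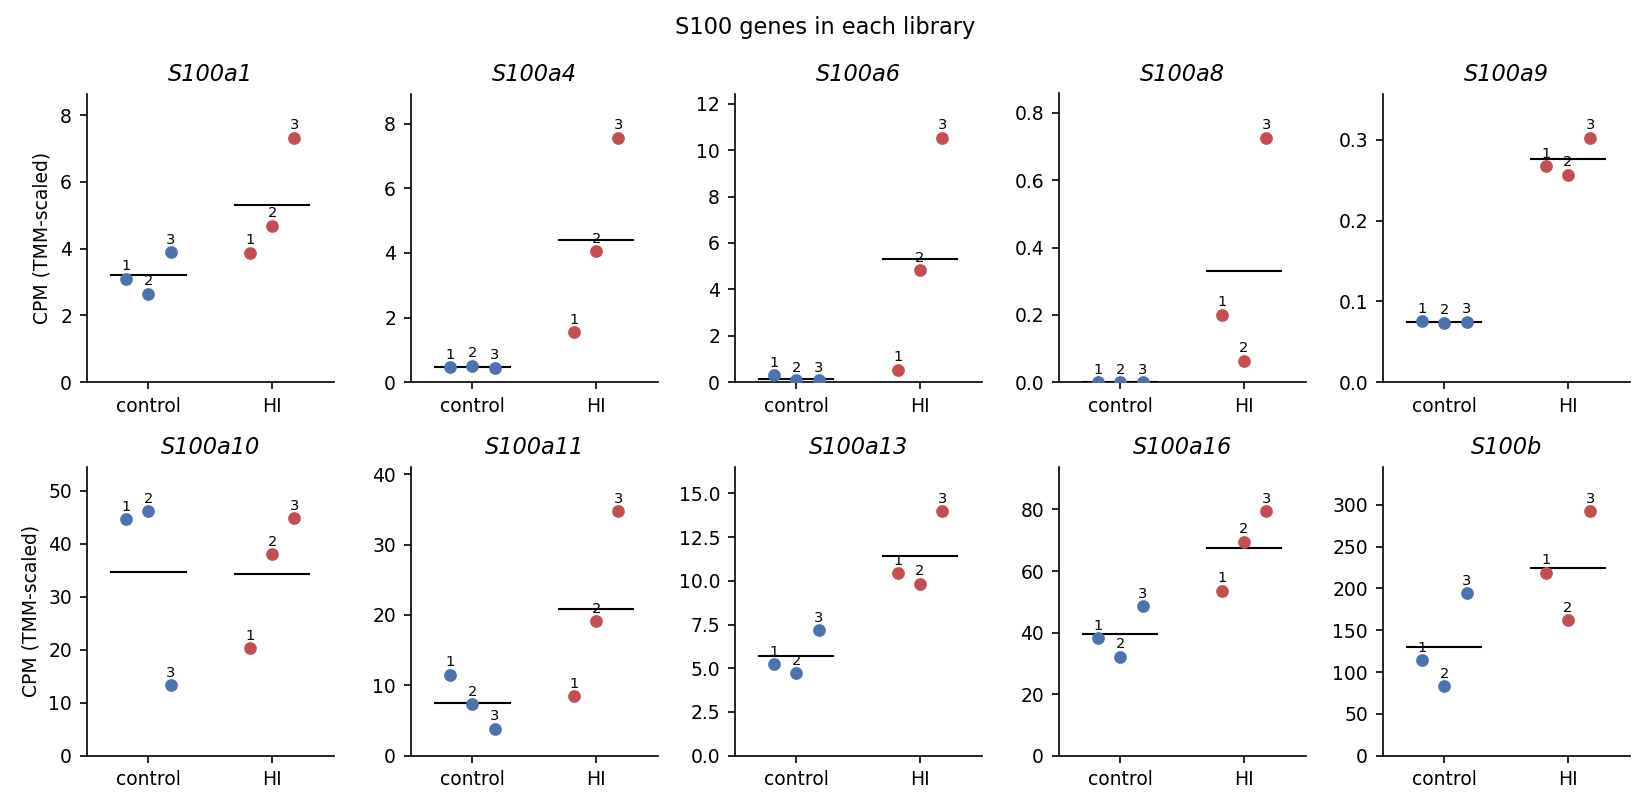
CPM of the 10 S100 genes in each library, with controls in blue, HI libraries in red, the replicate number beside each point and the group mean as a line. The vertical axes start at 0 and differ between genes. S100a4 and S100a6 run from near 0 in the controls to 7.57 and 10.5 CPM in HI 3, while S100a10 has both its highest and its lowest value among the controls.

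Calprotectin genes stayed near the limit of detection. S100a8 had 0 reads in each control and 3, 1 and 12 reads in HI 1, 2 and 3. S100a9 had 1 read in each control and 4, 4 and 5 reads in the HI libraries. HI 3 held 75% of the S100a8 reads. With 0 control reads against 16 HI reads the 95% counting interval of the S100a8 ratio starts at 3.29, and the ratio against a floor of 3 reads over the control group was 4.55. For S100a9 the ratio was 3.7 with a 95% counting interval from 1.02 to 20.2. Neither passed edgeR without the filter, where the adjusted p were 0.121 and 0.122. The neutrophil granule genes Mpo, Camp, Ltf and Retnlg had 3 reads or fewer in every library, Ngp at most 6, and summed neutrophil markers ran from 3.02 to 3.56 CPM in controls and from 9.36 to 16.4 CPM in HI. Most of that sum came from Csf3r and Mmp9, which passed the test. Mmp9 had at most 6 reads in each control and was tested through its HI reads alone.

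S100a13 binds copper as well as calcium and takes part in the release of FGF1, a growth factor without a secretion signal. Its level was 5.23, 4.71 and 7.19 CPM in controls 1, 2 and 3 and 10.4, 9.83 and 14 CPM in HI 1, 2 and 3. The groups did not overlap and the HI libraries lay closer together than for S100a4 or S100a6. S100a13 rose 2.0-fold (log2 fold change 1.0 ± 0.25 SE, edgeR adjusted p = 0.0458), and limma-voom missed the threshold at an adjusted p of 0.0544. This edgeR call was lost without control 1, control 2, HI 2 or HI 3 (adjusted p from 0.103 to 0.148, log2 fold change from 0.83 to 1.09) and held without control 3 or HI 1. Over all genes edgeR called 0 without control 1 or HI 2 and 1 without control 2, so the losses in those fits say little about S100a13 alone. Without HI 3 edgeR still called 644 genes, and S100a13 had an adjusted p of 0.109. The call was also lost in edgeR without the filter on low counts (adjusted p = 0.0544). Fgf1 itself rose from 2.94 ± 0.63 to 18 ± 11.1 CPM (SD, log2 fold change 2.61 ± 0.51 SE, edgeR adjusted p = 0.0294).

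S100a16, a broadly expressed member, had 38.2, 32.2 and 48.5 CPM in controls 1, 2 and 3 and 53.6, 69.5 and 79.5 CPM in HI 1, 2 and 3. The groups were separate, with control 3 and HI 1 close to each other. Its log2 fold change of 0.77 ± 0.21 (SE) lay just past the threshold (edgeR adjusted p = 0.0533). Upper-quartile factors and total counts gave an adjusted p of 0.0415 and 0.0364, DESeq2 one of 0.00692, and edgeR without HI 1 or without control 3 one of 0.0292 and 0.0458. It missed with limma-voom (adjusted p = 0.0619), with the choroid plexus level as a term (0.226) and without control 1, control 2, HI 2 or HI 3 (edgeR adjusted p from 0.131 to 0.157). Over all genes edgeR called 0 without control 1 or HI 2, and 1 without control 2 or with the choroid plexus term. The misses in those fits thus say little about S100a16 alone. Without HI 3 edgeR still called 644 genes, and S100a16 had an adjusted p of 0.131.

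S100b, the astrocyte member, had the most reads of the family in every library, from 1128 to 4829, which is no comparison of levels between genes as transcript lengths were not used. Its level was 114, 83.1 and 194 CPM in controls 1, 2 and 3 and 219, 162 and 293 CPM in HI 1, 2 and 3. HI 2 lay below control 3, so the groups overlapped. The log2 fold change was 0.78 ± 0.35 (SE) and did not pass (edgeR adjusted p = 0.159). Gfap, the intermediate filament of astrocytes, rose 10.9-fold in the same libraries (edgeR adjusted p = 0.0196), and the water channel Aqp4 1.94-fold (edgeR adjusted p = 0.0333). Aqp4 was the 1 of 10 astrocyte markers that rose and 0 fell, beside 6.83% and 7.04% of all tested genes. The other 9 did not pass. Among them were Sox9 at 1.89 and Gja1 at 1.93 of the control level (edgeR adjusted p = 0.0647 and 0.101). Glutamine synthetase Glul stood at 1.04 and the glutamate transporter Slc1a2 at 0.366 (edgeR adjusted p = 0.854 and 0.14). The median log2 fold change of the 10 markers was 0.36. DESeq2 called 3 of them higher and 0 lower, beside 28.1% of all tested genes in either direction. The log2 ratio of S100b to Gfap reads was -0.36, -0.78 and 0.51 in controls 1, 2 and 3 and -2.10, -3.11 and -2.98 in HI 1, 2 and 3. It was thus lower in 3 of 3 HI libraries, with a mean difference of -2.52 (exact permutation test, two-sided, p = 0.1, the smallest that 3 against 3 allows, and 0.133 adjusted over 4 ratios tested).

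S100a1 is the member known from heart muscle, where it acts on ryanodine receptors and the calcium pump of the endoplasmic reticulum. It had 41, 36 and 52 reads in controls 1, 2 and 3 and 58, 73 and 121 in HI 1, 2 and 3, or 2.65 to 3.89 CPM against 3.88 to 7.33 CPM. HI 1 and control 3 were at the same level and the other HI libraries were higher. The log2 fold change was 0.72 ± 0.32 (SE) and did not pass (edgeR adjusted p = 0.159). The ratio of S100b to S100a1 differed between the groups by only 0.15 on the log2 scale, less than its SD within controls (0.34) and within HI (0.36, exact permutation p = 0.6). Of the proteins S100a1 binds, the ryanodine receptor Ryr2 fell to 0.307 of the control level and the calcium pump Atp2a2 to 0.617 (edgeR adjusted p = 0.0235 and 0.0404).

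S100a10 does not bind calcium and forms a complex with annexin A2 that brings channels and plasminogen activator to the cell surface. Its level was 44.7, 46.2 and 13.3 CPM in controls 1, 2 and 3 and 20.3, 38.0 and 44.8 CPM in HI 1, 2 and 3. Control 3 and HI 1 were low and the other 4 libraries alike. The group means were nearly equal and the log2 fold change was -0.01 ± 0.50 (SE, edgeR adjusted p = 0.986). An interval of 2 SE on either side runs from -1.02 to 0.99, so sizeable changes in either direction are within the error. The sign turned with the setting, from -0.76 with the choroid plexus level as a term and -0.44 without control 3 to 0.25 without HI 1, and was positive with upper-quartile factors (0.08) and total counts (0.20).

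Anxa2, the partner in that complex, stood at 9.69, 21.8 and 7.79 CPM in controls 1, 2 and 3 and 23.9, 63.3 and 125 CPM in HI 1, 2 and 3. The groups were separate, though HI 1 was close to control 2. Its log2 fold change of 2.43 ± 0.67 (SE) did not pass (edgeR adjusted p = 0.0565). The log2 ratio of S100a10 to Anxa2 reads was 2.2, 1.08 and 0.76 in controls 1, 2 and 3 and -0.24, -0.73 and -1.48 in HI 1, 2 and 3. In reads S100a10 exceeded Anxa2 in all 3 controls and Anxa2 exceeded S100a10 in all 3 HI libraries. The mean difference between HI and control was -2.17 (exact permutation p = 0.1, the smallest possible, and 0.133 adjusted over 4 ratios). Ahnak, a giant scaffold that binds the complex, rose 3.95-fold (edgeR adjusted p = 0.0219).

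S100a11, which pairs with annexin A1 at membranes, is the direct neighbour of S100a10 in the reference gene order. It had 11.5, 7.29 and 3.82 CPM in controls 1, 2 and 3 and 8.49, 19.1 and 34.8 CPM in HI 1, 2 and 3. HI 1 fell inside the range of the controls, while HI 2 and HI 3 lay above it. The log2 fold change of 1.46 ± 0.59 (SE) did not pass (edgeR adjusted p = 0.126), but did with DESeq2 (adjusted p = 0.0474) and in edgeR without HI 1 (adjusted p = 0.0469). Anxa1, its partner, rose 6.79-fold (edgeR adjusted p = 0.0255). The reference table lists further S100a11-like genes and pseudogenes and a pseudogene of S100a10. How reads that match several copies were counted is not given in the sources used here, so both members carry that uncertainty, though all entries of both were whole numbers.

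**Figure D2:**
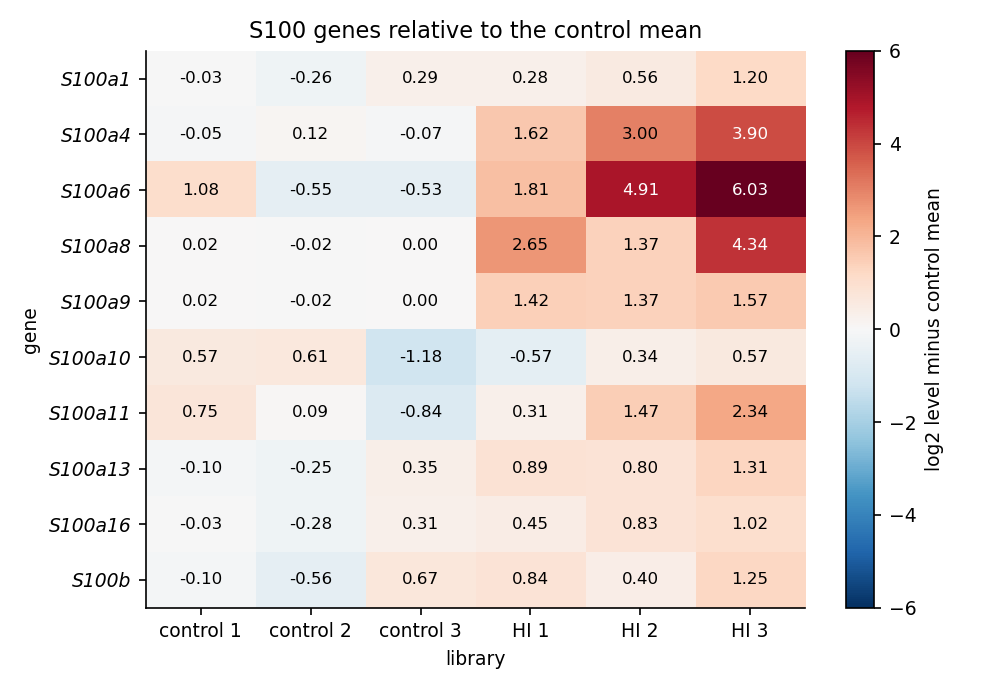
Log2 level of each S100 gene (rows) in each library (columns) minus the mean of the 3 controls, computed with 0.5 reads added, with the value in each cell. S100a6 reaches 4.91 and 6.03 in HI 2 and HI 3, and S100a10 and S100a11 are low in control 3, where S100a1, S100a13, S100a16 and S100b are high.

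The members fell into different patterns among themselves. HI 3 was the highest HI library for 7 of 7 tested members and for 42% of all tested genes. It was also the highest for S100a6, S100a8 and S100a9, which were not tested, for S100a9 with 5 reads against 4 and 4. Among the tested members 5 of 7 had HI 1 below HI 2 below HI 3, against 30.8% of tested genes. Within the controls S100a1, S100a13, S100a16 and S100b shared the order control 2, control 1, control 3 from low to high, an order found in 21.9% of tested genes. Summed astrocyte markers followed that same order, with 2074, 1693 and 2754 CPM in controls 1, 2 and 3. S100a4, S100a10 and S100a11 were lowest in control 3, as were 38.6% of tested genes.

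The summed levels of other cell type markers were set beside S100a4 and S100a6, and not all of them separated the groups. Summed choroid plexus markers, of the epithelium that makes cerebrospinal fluid, were at 17.0, 2200 and 10.5 CPM in controls 1, 2 and 3 and at 186, 8235 and 15419 CPM in HI 1, 2 and 3, with 0 of 10 tested called by edgeR (DESeq2 called 1, and 1 had an unadjusted edgeR p below 0.05). Beside these levels controls 1, 2 and 3 held 4, 1 and 1 reads of S100a6 and 6, 7 and 6 of S100a4. HI 1, 2 and 3 held 8, 75 and 174 reads of S100a6 and 23, 63 and 125 of S100a4. With the choroid plexus level as a term the log2 fold change of S100a4 was 1.98 (edgeR adjusted p = 0.173), that of S100a6 without a filter 2.57 (adjusted p = 0.369) and that of S100a13 1.07 (adjusted p = 0.169), and edgeR called 1 gene in all, with 3383 at an unadjusted p below 0.05. Summed fibroblast and meningeal markers ran from 51.7 to 366 CPM in controls and from 269 to 1090 CPM in HI, with 0 of 8 called by edgeR, 0 by DESeq2 and 0 at an unadjusted p below 0.05. Phagocyte markers summed to 76.0 to 98.7 CPM and 207, 484 and 756 CPM in HI 1, 2 and 3, with 6 of 9 higher, and reactive astrocyte markers to 229 to 264 CPM and 1433, 2302 and 3884 CPM, with 8 of 11 tested higher. Ependymal markers summed to 28.0 to 64.4 CPM and 122 to 290 CPM, with 4 of 8 higher. The counts of markers called higher compare with 6.83% of all tested genes. DESeq2 called 28.1% of the 14959 tested genes, and 5460 had an unadjusted edgeR p below 0.05. The phagocyte markers Itgax, Clec7a and Msr1 and the reactive astrocyte marker Aspg had fewer than 10 reads in each control. They were tested through their HI reads alone, which tilts those counts upward. The choroid plexus level used as a term was -1.04, 0.418 and -1.15 in controls 1, 2 and 3 and -0.371, 0.962 and 1.17 in HI 1, 2 and 3, in SD units. It ran partly with the group, so the fit with it does not separate this level from HI. The part of these markers in the S100 results was not tested, and in such tissue more cells of a type and more RNA per cell cannot be told apart.

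Some other library differences also ran across the groups. Y-linked genes gave reads in control 3, HI 2 and HI 3 and next to none in the other libraries. With their presence as a term S100a4 took a log2 fold change of 2.63 (edgeR adjusted p = 0.0712) and S100a13 one of 0.90 (adjusted p = 0.079). The log2 ratio of S100a4 to Aif1, a marker of microglia that itself rose 2.40-fold, was -4.01, -4.06 and -4.36 in controls 1, 2 and 3 and -3.28, -2.30 and -1.96 in HI 1, 2 and 3. S100a4 was thus higher relative to Aif1 in 3 of 3 HI libraries, by 1.63 on average (exact permutation p = 0.1, the smallest possible, and 0.133 adjusted over 4 ratios). Aif1 is 1 of 13 microglia markers, of which 10 rose beside 6.83% of all tested genes, with summed levels of 181 to 260 CPM in controls and 416 to 682 CPM in HI. Of 5 markers of monocytes and border macrophages 3 rose, beside the same 6.83%. Of these, Plac8 and Folr2 had fewer than 10 reads in each control and were tested through their HI reads alone. The ratio speaks for Aif1 alone, since fold changes were 0.913 for the microglial receptor P2ry12, which did not pass (edgeR adjusted p = 0.714), and 16.1 for Gpnmb and 51.7 for Lgals3, both phagocyte genes that rose (edgeR adjusted p = 0.0196 and 0.0207), beside 9.14 for S100a4.

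**Figure D3:**
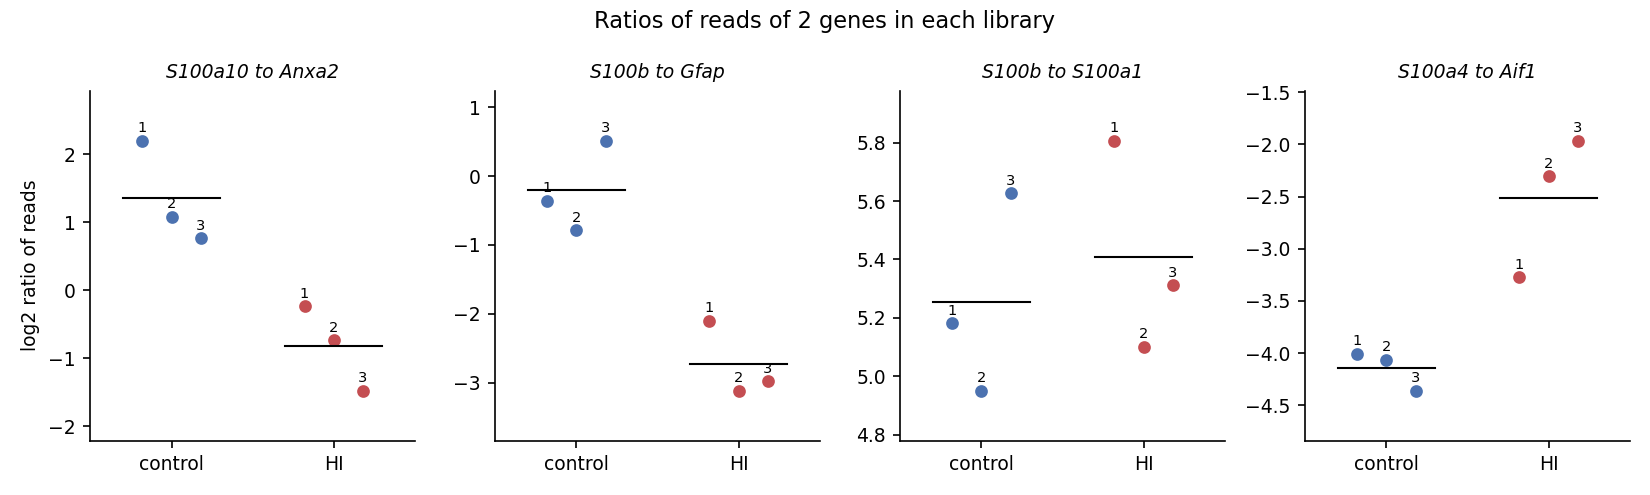
Log2 ratio of the reads of 2 genes in each library, with 0.5 reads added, controls in blue, HI in red, replicate numbers beside the points and group means as lines. The ratios of S100a10 to Anxa2 and of S100b to Gfap lie lower in all 3 HI libraries, that of S100a4 to Aif1 higher, and that of S100b to S100a1 overlaps.

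Among genes for proteins that S100 proteins bind, 3 of 25 rose in HI and 3 fell, a median log2 fold change of 0.30 beside 0.04 over all tested genes. Those that rose were Anxa1, Ahnak and Fgf1, and those that fell were Ryr2, Atp2a2 and Myh10, another nonmuscle myosin heavy chain (log2 fold change -0.65, edgeR adjusted p = 0.0312). The share called, 6 of 25, compares with 13.9% of all tested genes and is not taken as a result about the list. Of 4 receptors 0 passed edgeR, 1 passed DESeq2 and 2 had an unadjusted edgeR p below 0.05. Of all 14959 tested genes DESeq2 called 28.1%, and 5460 had an unadjusted edgeR p below 0.05. Ager, the receptor RAGE, was level at 3.19 ± 0.37 and 3.27 ± 0.93 CPM (SD, log2 fold change 0.04 ± 0.31 SE). Tlr4 was at 1.19 ± 0.21 and 2.62 ± 0.65 CPM and the scavenger receptor Cd36, which has entries that are not whole numbers, at 1.32 ± 0.35 and 3.76 ± 1.37 CPM, with edgeR adjusted p of 0.0646 and 0.0548.

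**Figure D4:**
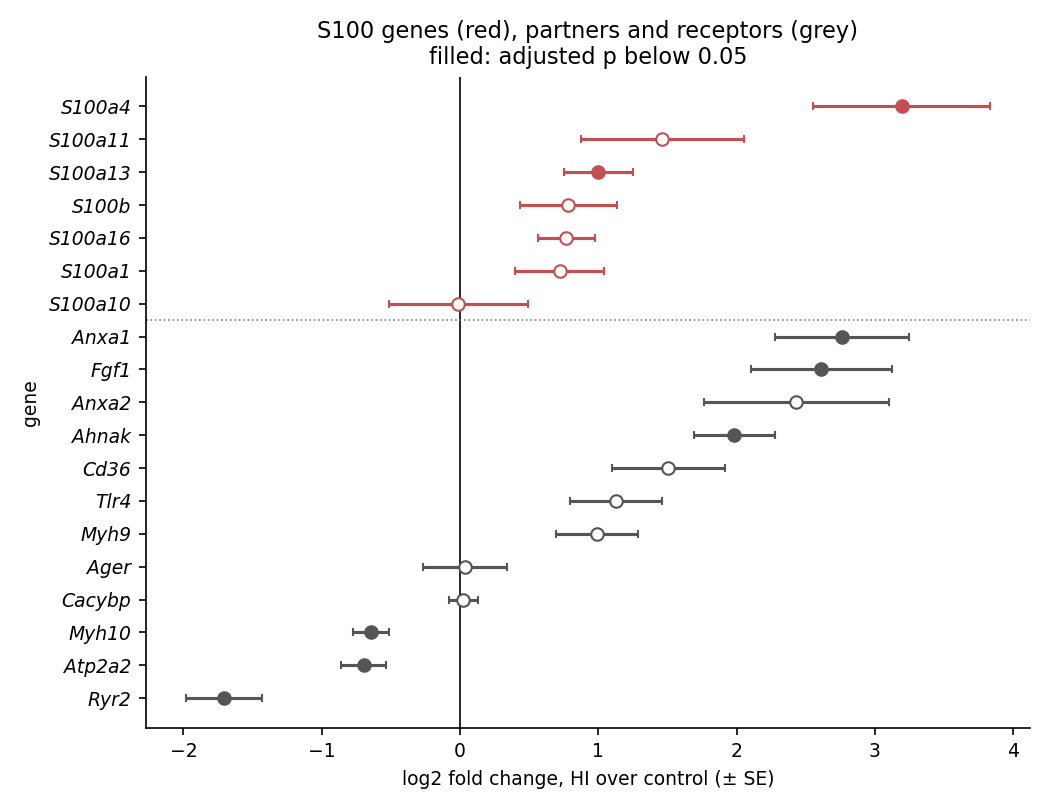
Log2 fold change of HI over control with its SE (horizontal bars) for the 7 tested S100 genes in red and for named partners and receptors in grey, filled where the edgeR adjusted p is below 0.05. S100a4 at 3.19 and S100a13 at 1.0 are filled, S100a10 sits at -0.01 and its partner Anxa2 at 2.43.

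Position on the chromosome was compared as gene order alone. In the reference gene order, from 10 protein-coding genes before S100a1 to 10 after S100a10, there were 76 genes outside the S100 family, many of them genes of the skin barrier, and 11 of them were tested. Their median log2 fold change was 0.03, and 1 of 11 rose and 0 fell, beside 13.9% of all tested genes. The one that rose was Npr1, a receptor for natriuretic peptides, with 3.35 ± 0.84 CPM in controls and 13 ± 5.15 CPM in HI (edgeR adjusted p = 0.0274). Snapin, a SNARE-binding protein, went from 37.2 ± 2.99 to 54.1 ± 9.05 CPM and did not pass (edgeR adjusted p = 0.0581), and the transcription factor subunit Ilf2 was level (log2 fold change 0.03 ± 0.12 SE). S100a3, a family member of hair follicles that lies beside S100a4, lay at 1.01 ± 0.43 on the log2 scale, short of the threshold (edgeR adjusted p = 0.145). S100a5, S100g and S100z had 3 reads or fewer in every library.

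**Figure D5:**
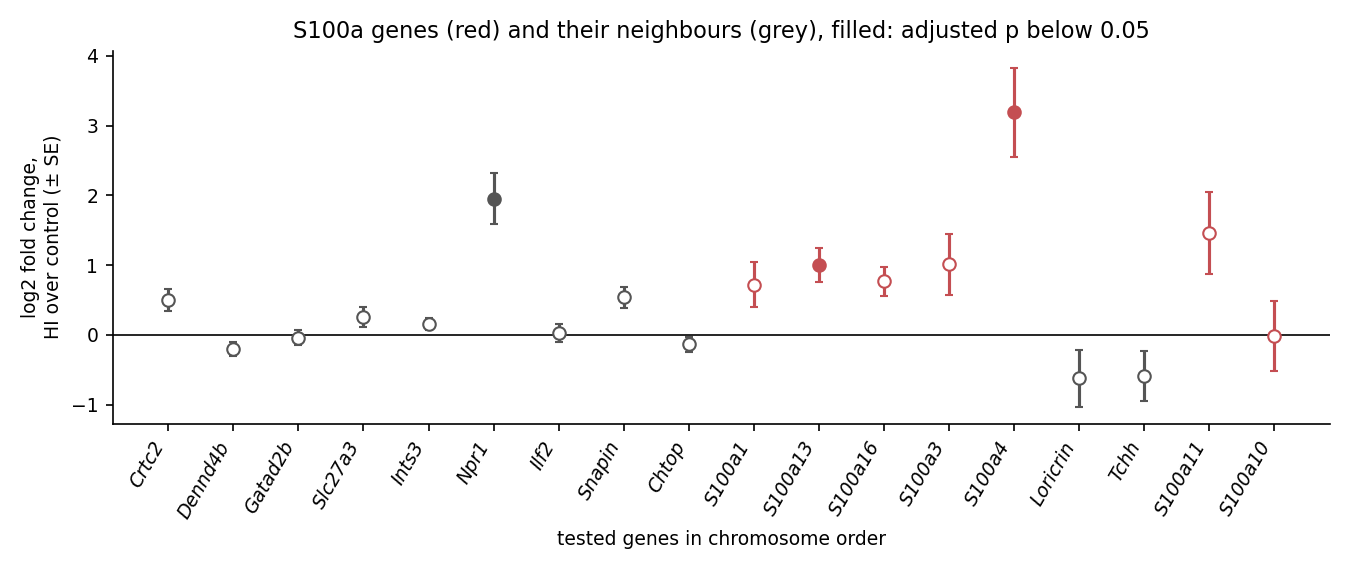
Log2 fold change of HI over control (± SE) for tested genes of the S100a region in the order of the reference gene table, S100 genes in red, others in grey, filled where the edgeR adjusted p is below 0.05. Between Crtc2 and Chtop only Npr1 is filled, and the S100 genes run from -0.01 for S100a10 to 3.19 for S100a4.

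At the depth of 13922663 to 14927469 reads per library, the called genes of the whole table numbered 2074, with 1021 higher and 1053 lower, and the edgeR count ranged from 0 without control 1 or HI 2 to 3689 without HI 1. The split moved to 1446 higher and 804 lower with upper-quartile factors and to 2161 and 730 with total counts, which put the median of all genes at 0.14 and 0.23 on the log2 scale, and to 552 and 819 with limma-voom. S100a4 and S100a13 were called under both of these scalings.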

How the data were processed

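RNA of brain tissue was sequenced in 6 libraries, grouped by title. The deposited table holds estimated counts per gene, unscaled per the file headers. The submitters' processing notes name HISAT2 2.1.0, SAMtools 1.10, StringTie 2.2.1 and Rnor 6.0. How reads were counted, on which annotation and with what strand setting is not given in the sources used here. Of all entries 8.87% were not whole within 1e-09, none of them in a member.

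Estimated counts were rounded, filtered with filterByExpr (minimum count 10), scaled by TMM and tested with edgeR 4.0.16 (quasi-likelihood F test, group as the only term, R 4.3.3), with Benjamini-Hochberg adjustment over 14959 genes. SE come from the F statistic. The fit was tested on simulated data. Ratios used 0.5 added reads. DESeq2 1.42.0, limma-voom (limma 3.58.1), other scalings and filters, a robust dispersion, a replicate block, 2 covariates and leaving out each library were alternatives. Members, partner lists and markers were chosen with earlier results of these data known. All members are named, as are partners that passed, the direct partner of each member, and the neighbours described. Settings for S100a6 without a filter were added after seeing the data. Promoters are RefSeq, build GRCr8, in which no other coordinate is given. The binomial intervals of S100a6, S100a8 and S100a9 cover counting error only, as amplified reads without molecular identifiers are not independent molecules. The interval of S100a10 is 2 SE of the edgeR fit on either side.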

Additional observations from a re-analysis of the deposited data

How the results depend on the processing

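Directions of S100a1, S100a4, S100a11, S100a13, S100a16 and S100b held in all 17 alternatives. Calls did not. The number of members called was 2, and became 4 with DESeq2 and 0 with limma-voom (3 at an unadjusted p below 0.05), with the choroid plexus covariate (2) and with the Y-linked covariate (3), and ran from 0 to 5 on leaving out single libraries. All genes called were 4200, 1371, 1 and 774 in those fits and 0 to 3689 on leaving out libraries, the count of 0 by edgeR leaving 3962 genes without control 1 and 4175 without HI 2 at an unadjusted p below 0.05. S100a4 and S100a13 each passed in 9 of the 17, S100a16 in 5, S100a11 in 2, S100b in 1 and S100a1 in 0 (lowest adjusted p 0.091). A count of 2 did not always mean the same members. In edgeR without a filter they were S100a4 and S100a6, and S100a13 had an adjusted p of 0.0544. Without control 3 they were S100a13 and S100a16, and S100a4 had an edgeR adjusted p of 0.062. S100a10 turned positive with upper-quartile factors (0.083), total counts (0.20), limma-voom (0.12), the replicate block (0.074), the Y-linked covariate (0.22) and without control 1 (0.17), control 2 (0.21) or HI 1 (0.25), and was -0.76 with the choroid covariate and -0.44 without control 3. The log2 difference in the ratio of S100b to S100a1 ran from -0.046 without HI 1 to 0.34 without control 3, and the other 3 ratios kept their sign. S100a6 without a filter passed in 2 of 11 settings. The causes were not tested.

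The replicate number as a block gave 3 members (S100b at an adjusted p of 0.0336 among them) and 1723 genes. Deviations of same-numbered libraries correlated at 0.24, 0.07 and -0.15 for numbers 1, 2 and 3, and HI 3 correlated best with control 2, so the numbers are not taken as pairs. Depth limits S100a8 and S100a9, where a few reads decide any difference.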

Other observations

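Other EF-hand calcium sensors and buffers, the wider class to which S100 proteins belong, were read from the same fit. Of 28 tested 3 rose and 8 fell, with a median log2 fold change of -0.31 beside 0.04 over all tested genes, of which 13.9% were called. Those that rose were Efhd2 (from 61.7 ± 3.02 to 112 ± 16.8 CPM), Cib1 and the microglial protein Aif1. Hpca, hippocalcin of cortical and hippocampal neurons, fell from 261 ± 53.5 to 64.3 ± 13.7 CPM (SD, n = 3, edgeR adjusted p = 0.0196), the calmodulin gene Calm2 from 695 ± 75.3 to 357 ± 50.9 CPM and Caln1, a neuronal calmodulin relative, to 0.336 of the control level. Beside these, edgeR called 4 of 12 neuron markers lower, against 7.04% of all tested genes. DESeq2 called 10 of them lower, beside 2124 of all 14959 tested genes. An unadjusted edgeR p below 0.05 was found for 10 of them, beside 5460 of all tested genes in either direction. The summed level of the neuron markers was 7842 to 9397 CPM in controls and 3060 to 5582 CPM in HI. All HI libraries were below all controls for 10 of the 12, beside 20.8% of all tested genes. Gad1 and Gad2 overlapped, at 1.31 and 1.27 of the control level, and were highest in control 3 and in HI 1 within their groups. Slc17a7 stood at 474, 511 and 426 CPM in controls 1, 2 and 3 and at 2.54, 63.3 and 51.1 CPM in HI 1, 2 and 3. The part of these neuron marker levels in the EF-hand results was not tested.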
